A study of Mus musculus with 9 samples.

Results

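The Ly49 receptors are a family of lectin-like surface receptors encoded by the Klra genes, and their RNA was followed here in invariant natural killer T (iNKT) cells of the type 1 kind taken from 3 tissues. The family was taken as every gene whose current symbol begins with Klra and a number, which gave 14 of the 14004 genes in the table: Klra1 to Klra11-ps without a gap, Klra13-ps, Klra14-ps and Klra17. iNKT1 cells are T cells that recognise lipids on CD1d through a nearly invariant receptor and depend on the transcription factor T-bet. RNA-seq libraries had been made from such cells of thymus, liver and spleen, 3 libraries of each tissue. All 9 came from untreated mice of the strain C57BL/6 with the genotype Tbx21CreTg;Rosa26-LSL-YFP+/+, so that no group lacks the transgene and the reporter: Cre driven by the T-bet gene Tbx21 switches on YFP, and a cell stays marked once Tbx21 has been on. The column of thymus replicate 2 is named WTf where the others are named WT, which the labels do not explain. Age and sex were not in the labels, and nothing there says whether mice were pooled.

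In mice, most Ly49 receptors bind classical MHC class I proteins on other cells. The inhibitory members carry an immunoreceptor tyrosine-based inhibitory motif (ITIM) at the start of the protein, inside the cell, which recruits the phosphatase SHP-1, the product of Ptpn6. The activating members Ly49D and Ly49H lack it and signal through the adaptor DAP12, the product of Tyrobp. The family is best known from natural killer (NK) cells, where each gene is switched on in only some of the cells, and it is also found on NKT cells and some CD8 T cells. In RNA from a whole population, fewer cells that use a gene and less of its RNA per cell cannot be told apart.

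The first bases of the coding sequence show the split between both receptor types, and they are shown for the 3 most abundant members and both activating ones. Each line runs from the start codon in the GENCODE vM21 transcripts, and the capitals mark codon 8.
Klra9: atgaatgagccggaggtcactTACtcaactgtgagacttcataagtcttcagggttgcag
Klra5: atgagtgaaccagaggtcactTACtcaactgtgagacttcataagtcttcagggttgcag
Klra1: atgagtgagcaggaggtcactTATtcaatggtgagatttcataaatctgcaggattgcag
Klra4: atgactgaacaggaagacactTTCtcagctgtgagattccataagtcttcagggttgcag
Klra8: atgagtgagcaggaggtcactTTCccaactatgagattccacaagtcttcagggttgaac
In Klra9, Klra5 and Klra1 the capitals spell tyrosine, the residue of the ITIM, and in Klra4 and Klra8 they spell phenylalanine. A search of the first 20 codons found an ITIM in 9 of the 11 protein-coding members, all but Klra4 and Klra8. 

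All members lie on the minus strand of chromosome 6 (mm10, the build named in the labels). A cluster of 13 spans 129831154 to 130386874, which is 556 kb, and Klra2 stands 832 kb beyond it at 131219223 to 131247362. Klra1, Klra5 and Klra9 are protein coding, as are 8 others, and Klra11-ps, Klra13-ps and Klra14-ps are pseudogenes. Near-identical copies share reads, so the transcripts were cut into windows of 75 bases, the read length in the labels, and each window was sought in the other members. For Klra5, Klra6, Klra2 and Klra17 no window was shared exactly, and for Klra1 0.237% were. The share was 12.1% for Klra9, 14.4% for Klra10 and 19.7% for Klra8. With up to 2 mismatches allowed, it was 76.6% for Klra9, 78.8% for Klra10, 76.7% for Klra8 and 66.1% for Klra3, but 2.37% for Klra5 and 8.66% for Klra1. No window was shared exactly with a gene outside the family. The values of Klra3, Klra7, Klra8, Klra9, Klra10 and the pseudogenes are therefore uncertain one by one, since how reads with several matches were counted is not given in the sources used here, and the sum over the family is given beside them.

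**Figure D1:**
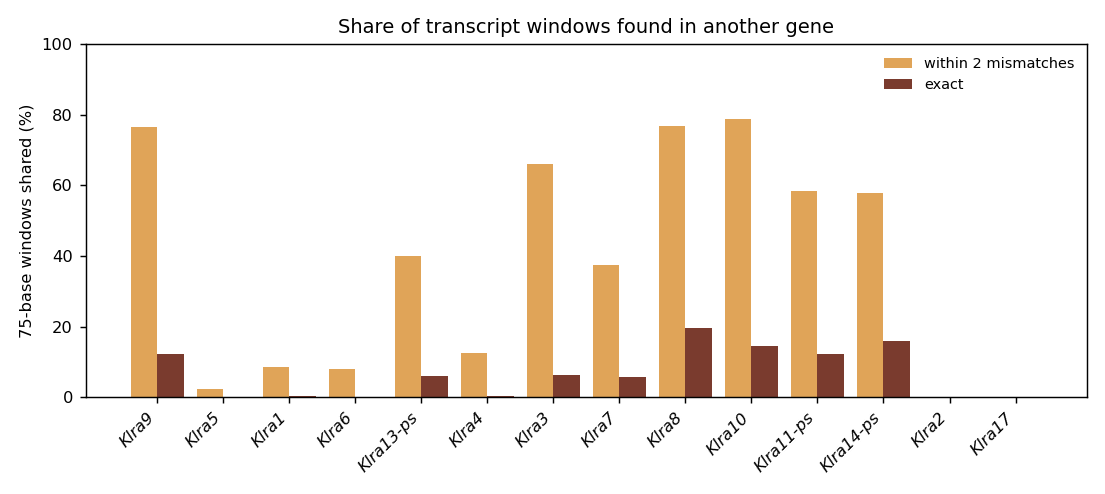
Share of 75-base transcript windows of each Ly49 gene (vertical axis, percent) that another member also holds, exactly or with up to 2 mismatches. Klra5, Klra6 and Klra1 stay under 10% even with mismatches, and Klra8, Klra9 and Klra10 pass 70%.

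The values are normalised read counts as the authors deposited them. The steps between low values give the worth of 1 read in each library, and with it the depth: 18505476 to 39576312 reads in 8 libraries and 3876539 reads in liver replicate 3. In that library 1 read is worth 6.04 units, more than 4 times its worth in any other, so a value of a few units there is at most 1 read. The libraries numbered 2 in each tissue carried Xist RNA at 84543 to 107736 and at most 21 Y-linked reads, the pattern of female mice, and thymus replicate 3 carried both Xist (16531) and Y-linked RNA (7016 reads). Counts without the libraries numbered 2 are given beside the tests.

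Ly49 RNA was much more abundant in iNKT1 cells of the thymus than in those of liver or spleen. Summed over the 14 members, the thymus libraries held 24313, 18860 and 18518 units, the liver libraries 2613, 1217 and 1656, and the spleen libraries 1844, 1400 and 678. The lowest thymus sum was above every other sum, while liver and spleen overlapped. The means were 20563 ± 3251 in thymus, 1828 ± 714 in liver and 1307 ± 588 in spleen (SD, n = 3 each), so that thymus was 11.2-fold above liver and 15.7-fold above spleen. In RPM, the recovered reads scaled to the depth of each library, the thymus libraries held 867, 589 and 799, the liver libraries 95.1, 51.2 and 69.9, and the spleen libraries 66.6, 62.7 and 28.6. The sum has no test of its own, since the family was proposed with results of these data known.

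**Figure D2:**
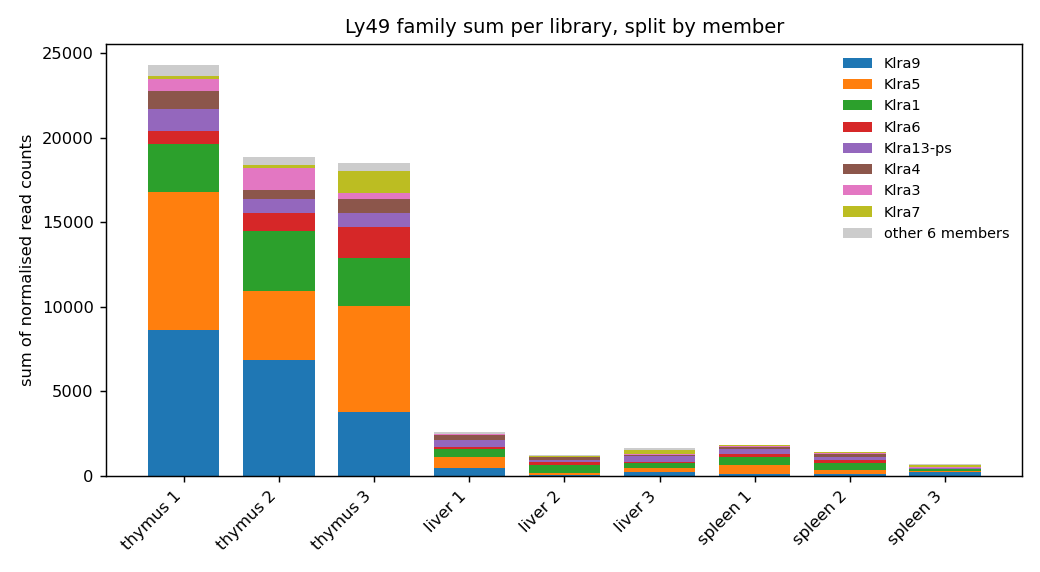
Normalised read count summed over the Ly49 genes (vertical axis) in each of the 9 libraries, with the members stacked. The thymus libraries reach 18518 to 24313 and no liver or spleen library passes 2613.

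Among the inhibitory receptors, Klra9 (Ly49I, ENSMUSG00000033024) had the highest mean in thymus. Its thymus libraries held 8606, 6857 and 3794 units, its liver libraries 460.2, 28.3 and 225, and its spleen libraries 93.9, 139.6 and 229. Every thymus value was above every value elsewhere, and liver and spleen overlapped. The means of 6419 ± 2436, 238 ± 216 and 154 ± 68.7 (SD, n = 3) put thymus 27.0-fold above liver and 41.6-fold above spleen. Klra9 fell in both tissues against thymus in limma's test over all genes. On the log2(value + 1) scale the difference was -5.39 in liver (SE 0.93, adjusted p 0.0197) and -5.39 in spleen (SE 0.93, adjusted p 0.0158). The liver call was lost without liver replicate 2 (adjusted p 0.0614) or 3 (0.102), or without thymus replicate 1 (0.0535) or 2 (0.0570), and the spleen call without the same thymus libraries (0.0518 and 0.0580) or any spleen library (0.0610 to 0.0880).

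Klra5 (Ly49E, ENSMUSG00000030173) was close to Klra9 in level, and its reads are nearly all its own. Ly49E is an unusual member that is found early in life and is known to recognise a protease of the urokinase type rather than a classical MHC protein. Its thymus libraries held 8175, 4081 and 6264 units, its liver libraries 678, 164 and 262, and its spleen libraries 584, 186 and 56.3. Again thymus stood clear of both other tissues, by 16.8-fold over liver and 22.4-fold over spleen in the means (6173 ± 2048, 368 ± 273 and 275 ± 275, SD, n = 3). Klra5 differed by -4.27 in log2 units in liver (SE 0.82, limma adjusted p 0.0389) and by -5.01 in spleen (SE 0.82, adjusted p 0.0131). The spleen call was lost without spleen replicate 2 (adjusted p 0.0649) or 3 (0.0610). The liver call was lost without any liver library, any thymus library or spleen replicate 2 (0.0570 to 0.214).

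Klra1 (Ly49A, ENSMUSG00000079853), the first Ly49 receptor to be described and a receptor for H-2D proteins, was the steadiest member among thymus libraries. They held 2849, 3519 and 2840.4 units, against 466, 461 and 274 in liver and 455, 433 and 97.7 in spleen. The thymus values stood apart and the other tissues overlapped. The means were 3069 ± 389, 400.3 ± 110 and 328 ± 200 (SD, n = 3), a ratio of 7.67 over liver and 9.35 over spleen. In spleen Klra1 fell, with a log2 difference of -3.504 (SE 0.69, limma adjusted p 0.0380), a call that was lost without any of the 9 libraries (adjusted p 0.0542 to 0.160). It was also lost with edgeR (0.0568) and, by limma, with library totals made equal (0.0613, or 0.0543 without mitochondrial genes). With only the 6 samples compared, the limma adjusted p was 0.108. In liver the difference of -2.97 (SE 0.69) did not pass, with a limma adjusted p of 0.104, though DESeq2 called it (adjusted p 5.65e-05).

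The other inhibitory members of the cluster differed in which library was high. Klra6 (Ly49F) held 767, 1107 and 1802 units in thymus, 123, 143 and 86.0 in liver and 184, 199 and 11.3 in spleen. Klra3 (Ly49C), a receptor for many MHC class I proteins that include H-2Kb, held 679, 1268 and 339.7 units in thymus, 11.3, 23.1 and 37.5 in liver and 73.7, 70.1 and 46.1 in spleen. Thymus was above both tissues in every library for both genes, and Klra3 was the one member for which liver and spleen did not overlap either. Klra7 (Ly49G), another receptor for H-2D proteins, held 201, 217 and 1282 units in thymus, 43.5, 57.5 and 255 in liver and 17.8, 49.5 and 146 in spleen. Replicate 3 was the high library of Klra7 in each tissue, and its liver value was above 2 thymus values. Klra10 (Ly49J) held 259.9, 189 and 153 units in thymus, 0.84, 18.0 and 0.83 in liver and 1.44, 0.63 and 6.50 in spleen, so that thymus was 30.6-fold above liver and 70.2-fold above spleen on a few reads in those tissues. None of these 4 passed limma's test: the adjusted p ran from 0.1765 (Klra3) to 0.564 (Klra7) in liver and from 0.190 (Klra10) to 0.437 (Klra7) in spleen.

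Both activating receptors had their highest mean in thymus and their lowest in spleen. Klra4 (Ly49D), which binds H-2D proteins, held 1038, 556 and 814 units in thymus, 335, 146 and 92.0 in liver and 126, 147 and 22.1 in spleen. Klra8 (Ly49H), known for recognising cells infected with mouse cytomegalovirus, held 380.02, 208 and 112 units in thymus, 42.6, 1.69 and 61.8 in liver and 9.64, 5.44 and 0.53 in spleen. The lowest thymus value of each was above all 6 others. The means of Klra4 in thymus were 4.2-fold above liver and 8.16-fold above spleen, and those of Klra8 were 6.60-fold and 44.8-fold above. Neither passed the test, with limma adjusted p of 0.442 and 0.239 for Klra4 in liver and spleen and 0.479 and 0.256 for Klra8.

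Klra2 (Ly49B) and Klra17 (Ly49Q) are known from myeloid cells and plasmacytoid dendritic cells rather than NK cells, and both were near 0 here. Klra2 held 8.995, 2.34 and 67.7 units in thymus, which are 8, 2 and 54 reads. It had 0 reads in 2 liver libraries, 4 reads in liver replicate 3 and none in any spleen library, where it was at least 13.4-fold lower than in thymus when the mean is set against a floor of 3 reads per library. Most of that thymus mean comes from replicate 3. Klra17 had at most 2 reads in any library, did not reach the filter on low values and has no fold change.

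Reads were also assigned to the pseudogenes, most of them to Klra13-ps. Klra13-ps held 1317, 789.75 and 857 units in thymus, 384, 165 and 322 in liver and 280.3, 168 and 62.3 in spleen. Its ratio of thymus to the others was smaller than that of the main receptors, 3.41 over liver and 5.80 over spleen, and it did not pass (limma adjusted p 0.434 and 0.2298). Klra11-ps held 28.0, 51.9 and 74.9 units in thymus and at most 7.40 elsewhere. Klra14-ps had no order by tissue: 4.51, 12.8 and 115 units in thymus, 64.35, 4.26 and 7.09 in liver and 11.1, 1.32 and 0 in spleen. The transcript of Klra14-ps shares 177 windows exactly with that of Klra8.

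**Figure D3:**
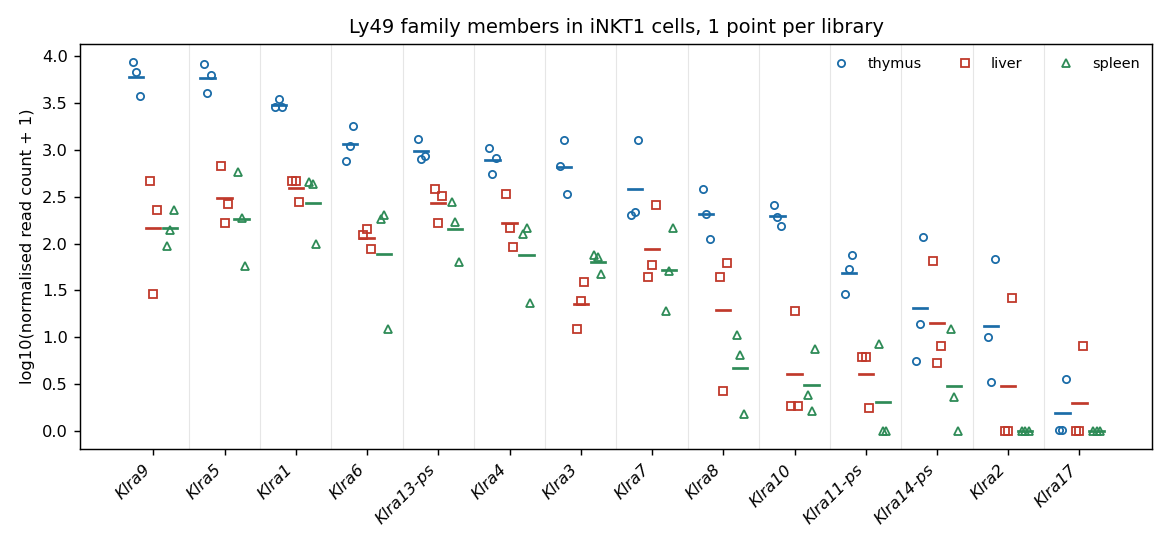
Log10 of the normalised read count + 1 (vertical axis) of each Ly49 gene in the 9 libraries, 1 point per library, with a line at the mean of the log values of each tissue. The thymus points lie above all liver and spleen points for 10 of the 14 members, the others being Klra2, Klra7, Klra14-ps and Klra17.

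Set side by side, the members' values pointed one way. The values of liver and thymus did not overlap for 10 of the 14 members, all lower in liver, and 5.73% of all genes tested had liver values wholly below thymus. For spleen against thymus it was 12 of 14, and 5.49% of all genes tested. For 10 of the 14 members the lowest thymus value was above all 6 values elsewhere, which 2.94% of all genes tested showed. Of the 13 members that passed the filter on low values, every one had a log2 difference below 0 in both comparisons, as had 40.1% of all tested genes in liver and 38.8% in spleen. Klra2, one of these 13 and of the 12 for spleen, passed the filter only through its thymus values. Its direction was thus largely set by the filter and is no support. Klra14-ps in liver turned to 0.15 without liver replicate 2 and to 0.69 without thymus replicate 3. The median over these 13 was -3.32 in liver and -3.72 in spleen, beside 0.29 and 0.33 over all genes tested. The median over all genes depends on the scaling, being 0.43 and 0.48 with library totals made equal and -0.04 and -0.02 with DESeq2, while all 13 members stayed below 0 in both. Most of the 13 share a tissue pattern and many are alike in sequence, so they were not taken as independent of one another.

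Past limma's threshold of 0.05, adjusted over the 13309 genes tested, stood 2 of the 13 in liver (Klra9 and Klra5), where 0.323% of all genes were called and 0.12% were called lower. In spleen it was 3 of 13 (Klra5, Klra9 and Klra1), where 0.398% of all genes were called and 0.21% called lower. At an unadjusted p under 0.05, 7 members were lower in liver, beside 3.92% of all genes, and 11 in spleen, Klra2 among them, beside 4.13%. The counts depend on the tool and on the libraries. On the reads recovered from the values, DESeq2 called 5 members lower in liver and 9 in spleen, beside 1.56% and 1.87% of all genes, and edgeR called 1 and 2, beside 0.0751% and 0.143%. DESeq2 called Klra1, Klra3, Klra5, Klra6 and Klra9 in both tissues, and Klra4, Klra8, Klra10 and Klra13-ps in spleen only. Without the 3 libraries numbered 2, limma called 0 members in liver and 1 in spleen, beside 3 and 7 of all 12466 genes called lower. These p-values rest on the spread between libraries of the same tissue, estimated together over all 9 libraries. The labels do not say that the libraries of a tissue came from separate animals. In each tissue the libraries numbered 1 and 2 differ in Xist and Y-linked RNA, so these at least came from different animals.

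**Figure D4:**
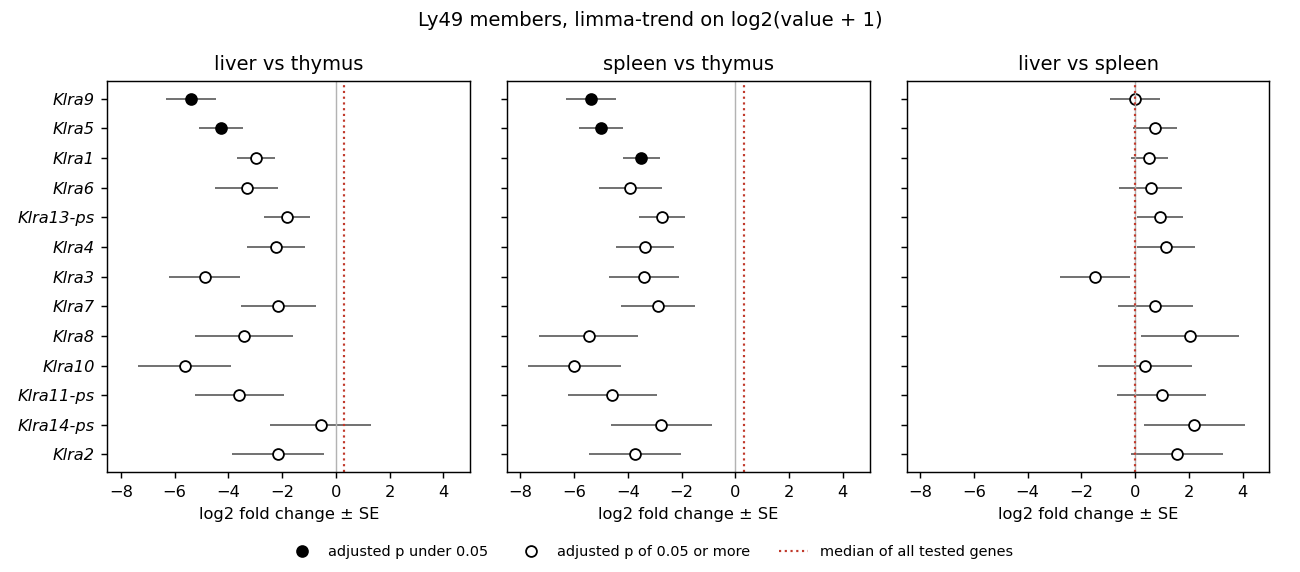
Difference of each Ly49 gene between tissues, in log2(value + 1) units, with bars of 1 SE from limma, for liver against thymus, spleen against thymus and liver against spleen. In the comparisons with thymus all 13 points lie below 0, filled points passed the adjusted threshold of 0.05, and the dotted line is the median of all tested genes.

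Between liver and spleen no member differed past the threshold, where 0.015% of all genes were called. By limma 0 of 13 passed, at an unadjusted p under 0.05 it was also 0, beside 3.03% of all genes, and edgeR and DESeq2 called 0 as well, beside 0.015% and 0.165% of all genes. The log2 differences of liver against spleen ran from -1.48 (Klra3) to 2.21 (Klra14-ps). The 95% intervals leave room for sizeable differences: from -0.93 to 2.002 for Klra1, from -1.01 to 2.49 for Klra5 and from -1.97 to 1.97 for Klra9. The liver values of Klra3 were all below its spleen values, and 6.86% of all genes had liver values wholly below spleen.

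The members' shares of the sum, taken on the deposited values and not per length, varied between libraries. In thymus, Klra9, Klra5 and Klra1 together made up 75.7% of the sum on average. In liver the leading members were Klra1, Klra5 and Klra13-ps with 58.4%, and in spleen Klra1, Klra5 and Klra9 with 57.4%. Klra9 made up 30.7% of the sum in thymus on average (20.49 to 36.4% by library), 11.2% in liver (2.33 to 17.6%) and 16.3% in spleen (5.09 to 33.8%), while Klra1 made up 15.2%, 24.1% and 23.3%. The 9 members with an ITIM held 88.6 to 91.4% of the sum in the thymus libraries, 68.2 to 73.6% in liver and 76.4 to 87.5% in spleen, with no overlap between thymus and the others. The activating pair held 4.05 to 5.83% in thymus, 9.28 to 14.4% in liver and 3.34 to 10.9% in spleen. The pseudogenes held 4.53 to 5.66% in thymus, 14.3 to 19.9% in liver and 9.18 to 16.2% in spleen. As levels, the ITIM members had summed means of 18444 ± 2708 in thymus, 1283 ± 454 in liver and 1027 ± 411 in spleen, and the activating pair had means of 1036 ± 341, 226 ± 131 and 104 ± 70.6 (SD, n = 3). These shares were not tested, and they rest on the assignment of reads among near-identical copies.

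Levels of different genes can be ordered only per length. Per kilobase of exon, the thymus means were 5019 units for Klra9, 4416 for Klra5, 1740 for Klra1, 1098 for Klra6, 949 for Klra13-ps, 645 for Klra4, 616 for Klra3, 448 for Klra7, 244 for Klra10 and 198 for Klra8, with the other 4 under 70. Klra9 and Klra5 overlapped, and both stood above Klra1 in every thymus library. From Klra1 down each gene overlapped with its neighbour in that order as far as Klra8. In liver the order per kilobase was led by Klra13-ps at 279, Klra5 at 263, Klra1 at 227 and Klra9 at 186, and in spleen by Klra5 at 197, Klra1 at 186, Klra13-ps at 164 and Klra9 at 121. In both tissues the library values of these 4 overlapped, so these orders lie within the spread.

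The windows around the start sites of the 3 members that passed the test are shown because these genes differ in the same direction between tissues. They come from RefSeq (GRCm38.p6) and run from 250 bases before the start to 50 after it, on the minus strand. Capitals mark matches to the motifs searched. Klra1 lies at chr6:130386825-130387124, Klra5 at chr6:129913175-129913474 and Klra9 at chr6:130193063-130193362.
Klra9: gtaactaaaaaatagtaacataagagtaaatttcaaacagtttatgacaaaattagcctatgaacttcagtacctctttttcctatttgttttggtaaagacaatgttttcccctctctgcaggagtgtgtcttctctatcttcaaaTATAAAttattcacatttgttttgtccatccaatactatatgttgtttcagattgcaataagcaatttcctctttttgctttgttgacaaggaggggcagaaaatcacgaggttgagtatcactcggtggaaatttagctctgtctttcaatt
Klra5: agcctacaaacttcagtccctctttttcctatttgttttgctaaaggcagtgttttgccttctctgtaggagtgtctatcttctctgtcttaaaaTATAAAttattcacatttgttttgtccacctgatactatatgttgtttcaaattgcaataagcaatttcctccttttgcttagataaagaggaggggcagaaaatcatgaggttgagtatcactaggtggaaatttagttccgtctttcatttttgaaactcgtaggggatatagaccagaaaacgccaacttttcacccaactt
Klra1: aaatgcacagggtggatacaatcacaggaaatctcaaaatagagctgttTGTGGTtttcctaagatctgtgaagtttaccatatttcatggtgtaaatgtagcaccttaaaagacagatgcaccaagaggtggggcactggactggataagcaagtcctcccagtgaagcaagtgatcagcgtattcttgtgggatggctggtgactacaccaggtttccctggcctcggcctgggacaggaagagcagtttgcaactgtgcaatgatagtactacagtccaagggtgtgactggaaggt
In Klra9 and Klra5 the capitals are the TATA letters TATAAA, 103 and 155 bases before the start, and in Klra1 they are the RUNX letters TGTGGT, 201 bases before it. RefSeq gave 13 windows for 11 members. On either strand, TATAAA was in 8 of the 13 and in 13.6% of the 32851 windows of all genes, and TGTGGT was in 1 of the 13 and in 16.8% of all. The windows of Klra8 overlap and hold the same TATAAA site, which is counted in each. CTTTGA, the letters of the TCF and LEF factors, was in 3 windows, of Klra6 and Klra7, and in 16.0% of all. AGGTGT, the core letters of T-box factors such as T-bet, was in none of the 13 and in 13.7% of all. A match is only a match of letters. Some windows are close copies, with 86.0% identity between Klra4 and Klra8, 85.0% between Klra9 and Klra3 and 76.0% between Klra5 and Klra6, so they do not count as separate cases.

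Among the genes that work with the receptors, the phosphatase gene Ptpn6 had a tissue pattern like that of the family. Ptpn6 held 16256, 12081 and 10409 units in thymus, 4229, 3444 and 3829 in liver and 3417, 1692 and 2319 in spleen, and the 3 tissues did not overlap. Its log2 difference was -1.73 in liver (SE 0.32, limma adjusted p 0.0292) and -2.42 in spleen (SE 0.32, adjusted p 0.00331). The spleen call held in all 22 alternative settings tried. The liver call held in 14 and was lost, among others, without any liver library, thymus replicate 1 or 2, or spleen replicate 3, with an adjusted p of up to 0.296 over these settings. Of the other 7 genes of the list of ITIM and DAP12 signalling, 0 passed by limma, edgeR or DESeq2 in any comparison, and Plcg2 alone had an unadjusted p under 0.05, in spleen. The list's median log2 difference was -0.02 in liver and 0.10 in spleen, beside 0.29 and 0.33 over all genes.

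Of the 3 adaptors, 0 passed by limma or edgeR in any comparison, with 1, 2 and 0 at an unadjusted p under 0.05 for liver against thymus, spleen against thymus and liver against spleen. Of all 13309 genes tested, 1550, 1555 and 403 had such a p in either direction. Tyrobp, the DAP12 partner of the activating members, held 230, 20.9 and 2.56 units in thymus, 397, 181 and 170 in liver and 1069, 179 and 156 in spleen (adjusted p 0.446 in liver and 0.3805 in spleen). It did not share the members' order, and its thymus values spanned from 2.56 to 230. Fcer1g, the signalling chain shared by Fc receptors and some NK receptors, held 6967, 3191 and 4117 units in thymus, 1960, 519 and 189 in liver and 1079, 471 and 237 in spleen (adjusted p 0.165 and 0.1115), and DESeq2 called it lower in both tissues. Hcst, which encodes the adaptor DAP10, held 930, 1852 and 1351 units in thymus, 1046, 1385 and 1509 in liver and 1862, 2150 and 1803 in spleen, so that thymus overlapped with both tissues.

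The NK gene complex that holds the Klra genes also holds other lectin-like receptors, of which 12 of the 14 listed were in the table. Klrd1 encodes CD94, the shared chain of the NKG2 receptors. It held 17224, 13285 and 20458 units in thymus, 4044, 2565 and 3447 in liver and 2784, 3420 and 2173 in spleen. Klrd1 fell by 2.34 in log2 units in liver (limma adjusted p 0.00355) and by 2.61 in spleen (adjusted p 0.000783), and both calls held in all 22 alternatives. Klrk1, which encodes NKG2D, fell by 1.71 in liver (adjusted p 0.0267), a call lost without any liver library, thymus replicate 1 or 2, or spleen replicate 1 or 2. Klre1, a receptor chain that pairs within this group, fell by 2.53 in spleen (adjusted p 0.0181), a call lost without any spleen library. Over all 22 alternatives the adjusted p reached 0.302 for Klrk1 and 0.237 for Klre1. So limma called 2 of the 12 lower in each comparison with thymus and none higher, beside 0.12% and 0.21% of all genes called lower. In either direction, 8 in liver and 9 in spleen had an unadjusted p under 0.05, beside 1550 and 1555 of all 13309 genes. edgeR called 1 and 2, beside 22 and 37 of all genes, and DESeq2 5 and 6, beside 454 and 512. The 8 and the 9 include Klrb1f and Klrg1, and the 5 of DESeq2 include Klrb1f, which were higher than in thymus. Not all pointed down: Klrb1f, a receptor of the NKR-P1 group, differed by 2.55 in liver and 2.48 in spleen (adjusted p 0.177 and 0.166), and DESeq2 called it in liver, and Klrg1 differed by 5.55 and 5.69 (adjusted p 0.287 and 0.257). None passed between liver and spleen by limma (3 at an unadjusted p under 0.05, beside 3.03% of all genes, and 0 by edgeR and by DESeq2). The list's median was -1.13 in liver and -1.30 in spleen.

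**Figure D5:**
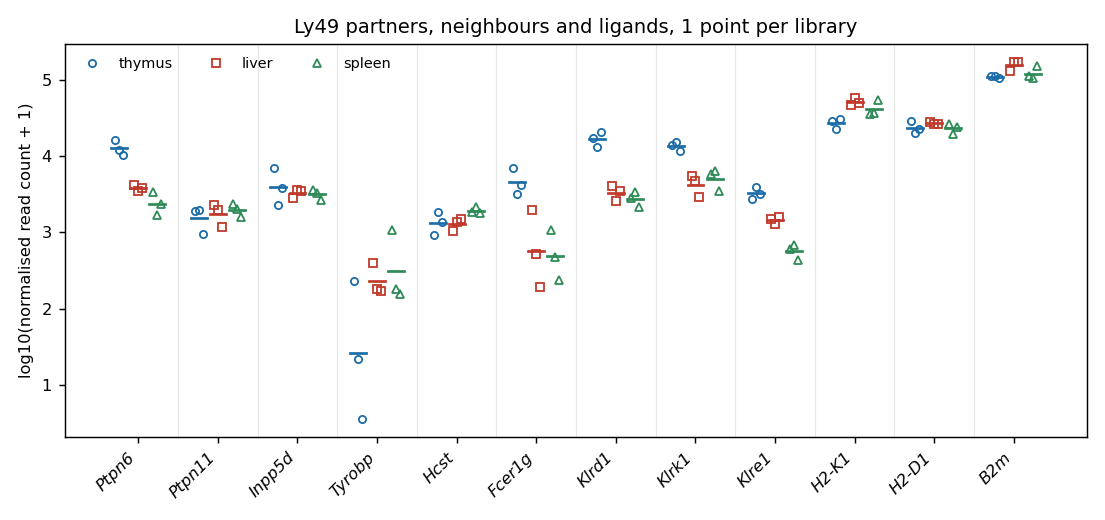
Log10 of the normalised read count + 1 (vertical axis) of partners, neighbours and ligands of the Ly49 receptors, 1 point per library, with a line at the mean of the log values of each tissue. Ptpn6 and Klrd1 show thymus above liver and spleen, and Tyrobp shows no such order.

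The ligands and the transcription factors did not pass limma's test. Of the 5 ligand genes listed, 4 were in the table (H2-K1, H2-D1, H2-Q7 and B2m), and none passed by limma or edgeR in any comparison, with 3, 1 and 1 at an unadjusted p under 0.05 for liver against thymus, spleen against thymus and liver against spleen. Of all 13309 genes tested, 1550, 1555 and 403 had such a p in either direction. In liver those 3 ligand genes were higher than in thymus: H2-K1 by 0.92 in log2 units (limma adjusted p 0.0516), H2-Q7 by 0.90 (0.262) and B2m by 0.51 (0.202). H2-D1 differed by 0.18 (0.738), with values that overlapped. DESeq2 called H2-K1 higher in liver. The summed level of the ligands was high everywhere. Of 10 transcription factors known from the control of Ly49 genes or of iNKT1 cells, 0 passed by limma, edgeR or DESeq2. At an unadjusted p under 0.05 it was 2, 2 and 1, beside the same 1550, 1555 and 403 of all genes. Tbx21 had means of 3005, 2729 and 3298 units in thymus, liver and spleen, Tcf7 of 1642, 1626 and 1887, and Runx3 of 5898, 3454 and 3499.

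As a description of likeness, the log2 family sum was set against every other gene with enough signal over the 9 libraries, 11585 genes in all. The 5 genes most like it by Pearson's r were Klrd1 (0.982), a gene without a symbol (ENSMUSG00000088110, 0.965), Itgae (0.962), which encodes the integrin CD103, Ptpn6 (0.951) and Ctsc (0.951), the protease that activates granzymes. The 9 points fall into thymus and the rest and share their libraries, so these values describe the split by tissue and have no test.

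Markers of other cells were present at different levels in the tissues. The listed iNKT1 and T cell markers were all in the table and summed to 94995 to 115920 units in thymus, 122020 to 142469 in liver and 84420 to 102325 in spleen. Of the 7 NK cell markers, 6 were in the table, of which 5 also stand in the lists above. The 6 summed to 7712 to 10798 units in thymus, 2227 to 5590 in liver and 976 to 2818 in spleen. This is the order of the Ly49 sum, and in thymus the marker sum was mostly Fcer1g, Klre1 and Klri2. Ncr1, the defining gene, did not follow that order, nor did Tyrobp and Eomes. The list's median log2 difference was 0.39 in liver and -2.00 in spleen. Ncr1, which encodes NKp46, had no read in any thymus library, against 616, 13.7 and 131 units in liver and 0.70, 1.31 and 35.9 in spleen. Eomes held 0.02, 1.19 and 23.9 units in thymus, 395, 0 and 7.19 in liver and 0.70, 0 and 0.52 in spleen, so that its high level was in liver replicate 1. Myeloid markers (4 of 7 in the table) summed to 10.5 to 315 units in thymus, 25.6 to 1298 in liver and 56.3 to 2635 in spleen. B cell markers summed to at most 0.18 units in thymus, 747 in liver and 2122 in spleen, and hepatocyte markers to 1330 to 1633 in liver and at most 269.5 elsewhere. The CD8 T cell markers summed to 0.05 to 286 units in thymus, 86.6 to 1157 in liver and 0 to 25.7 in spleen. Immature thymocyte markers (4 of 6, mostly Cd4) summed to 1636 to 7398 units in thymus, 6440 to 7921 in liver and 5470 to 10055 in spleen. That sum follows Cd4 rather than the other markers of its list. Rag1 reached 486 in thymus replicate 3 with at most 1 read in every other library. Arpp21 and Dntt were also highest in thymus replicate 3, at 153 and 11.3 units. The part of such other cells in the Ly49 values was not tested.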

How the data were processed

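RNA-seq of iNKT1 cells from thymus, liver and spleen (3 libraries each) was analysed from a single table of 14004 genes by 9 libraries. The values are normalised read counts (a signal scale) as the authors deposited them, and no column was left unused (0 of other samples). Trimmomatic 0.33, TopHat2 2.1.0, HTSeq 0.6.1, edgeR and the build mm10 are named, with no role or settings, per the submitters' processing notes. Low values in the deposited table were near whole multiples of 1 read: of 15737 values that came to 20 reads or fewer, 93.7% were within 0.1 read of a whole number (74.0% in liver replicate 3). The recovered reads gave the depths, and edgeR called 22, 37 and 2 genes on them in the 3 comparisons.

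The main test was limma 3.58.1 (trend, in R 4.3.3) on log2(value + 1) over all 9 libraries, for the 13309 genes that reached 1 unit in 3 or more libraries, two-sided, with Benjamini-Hochberg adjustment over all genes tested. Fold changes on this scale understate those of low genes. edgeR's quasi-likelihood test (4.0.16) and DESeq2 (1.42.0) on the recovered reads were alternatives, as were other pseudocounts, filters, scalings, a replicate block and leaving out libraries. The fit was tested on simulated data. Deviations of libraries with the same replicate number correlated weakly (-0.0007 to 0.0891 over 9 pairs, none above 0.1). For different numbers the range was -0.0866 to 0.0484 over 18 pairs. By the limit of 0.1, numbers were not taken as pairs in the main test, which does not exclude pairing. For overlap counts, values with no recovered read were set to 0. The named genes were all members, the lists' genes past the threshold or of a stated role, and the genes most like the family sum. Members and lists were chosen with earlier results of these data known.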

Additional observations from a re-analysis of the deposited data

How the results depend on the processing

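The summed level of the family kept its direction and moved by less than the spread between libraries under every alternative run: the log2 difference lay between -3.84 and -3.29 for liver against thymus, between -4.39 and -3.67 for spleen against thymus and between 0.11 and 0.89 for liver against spleen. The number of members past the threshold moved. For liver against thymus (2 members) it was 5 with DESeq2, 1 with edgeR, 1 with no filter on low values and 0 without the 3 libraries numbered 2. With single libraries left out it ran from 0 to 2: it was 0 without liver replicate 2, liver replicate 3, thymus replicate 1 or thymus replicate 2, and 1 without liver replicate 1, spleen replicate 2 or thymus replicate 3. For spleen against thymus (3 members) it was 9 with DESeq2, 2 with edgeR and 1 without the 3 libraries numbered 2. It was also 2 with library totals made equal, with or without mitochondrial genes, and with only the 6 samples compared. With single libraries left out it ran from 0 to 2: it was 0 without spleen replicate 2 or 3, and 1 without spleen replicate 1, thymus replicate 1 or thymus replicate 2. Fewer libraries enter those fits. With 1 library left out, limma called 4 to 28 of all genes lower in liver and 5 to 34 lower in spleen. The main fit called 16 and 28 lower. Without thymus replicate 1, 2 or 3, limma called 49, 40 and 151 genes in either direction for liver against thymus, beside 43 in the main fit. Of these, 6, 9 and 28 were lower in liver. The cause of the lost calls and of the differences between tools was not tested. For liver against spleen the number of members called was 0 in every setting run. With the replicate block the counts were 2, 3 and 0, and 2, 3 and 0 with edgeR and the block; 8 of the 9 libraries correlated best with their own number, a hint from the data only. For single members, 787 results kept their direction and side of the threshold, 37 lost the threshold, 9 gained it and 21 turned in direction, none of them a called result. Between liver and spleen, where no member was called, Klra9 turned to 0.65 with DESeq2, 0.61 with edgeR, 0.21 with edgeR and the replicate block, 0.0034 with equal library totals without mitochondrial genes, 0.0071 and 0.051 with pseudocounts of 2 and 8, and 1.13 without the libraries numbered 2. There Klra6 turned to -0.15 with DESeq2, -0.17 with edgeR and -0.0058 with edgeR and the block, and Klra10 to -1.22 without the libraries numbered 2. With single libraries left out, the liver and spleen difference ran from -0.19 to 0.91 for Klra1, -0.10 to 1.57 for Klra5, -0.73 to 1.28 for Klra6, -0.026 to 1.502 for Klra7, -0.84 to 1.15 for Klra9 and -0.76 to 1.01 for Klra10. For liver against thymus it ran from -1.66 to 0.69 for Klra14-ps. Depth limits liver replicate 3 most, with 271 reads over the family.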
